A study of Bos taurus with 6 samples.

Results

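The BCL2 family decides whether the outer membrane of the mitochondrion stays intact, and 10 of its genes were described in rumen epithelial primary cells (REPC) with and without butyrate. They were taken by gene name from the deposited expression tables, where each of the 10 names stood on 1 of the 32183 listed rows. The 3 anti-apoptotic members are BCL2, BCL2L1 (BCL-XL) and MCL1. The 7 pro-apoptotic members are the effectors BAX and BAK1 and the BH3-only genes BID, BBC3 (PUMA), BCL2L11 (BIM), BMF and BIK. The question put to the data was whether the anti-apoptotic and the pro-apoptotic members moved apart when the cells met butyrate.

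REPC were grown from the rumen wall of 1 Holstein bull calf, aged 2 weeks and raised on milk replacer alone. RNA was sequenced after 24 h in 3 cultures that received 5 mM butyrate and in 3 untreated control cultures. Since all cultures descend from 1 animal, every p-value below measures the spread between cultures and not between animals. Butyrate is a short-chain fatty acid made by rumen microbes and an inhibitor of histone deacetylases.

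In the mitochondrial pathway of apoptosis, BAX and BAK1 form pores in the outer mitochondrial membrane, and cytochrome c leaks out through them. Anti-apoptotic members hold the effectors and the BH3-only proteins in check. Of the homology domains of the family, BH3-only proteins carry the BH3 domain alone, a short helix. With it they occupy the anti-apoptotic groove or activate the effectors directly. Many of these proteins are also controlled by phosphorylation, cleavage, localization and turnover, none of which an RNA level shows.

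Expression is given as FPKM, which is fragments divided by transcript length and by library size, so that levels can be compared between genes. Total FPKM per culture lay between 678035 and 681912 without butyrate and between 619401 and 629037 with it, so 1 FPKM stands for a somewhat larger share of the total after butyrate. Depth cannot be read from FPKM, and the confidence bounds that Cufflinks wrote for each value serve as the measure of counting precision. Values of single cultures are listed in the order of replicates 1 to 3. Several keratins were high, with a mean of 3858 FPKM for KRT17 and 401 FPKM for KRT5 in control. KRT8, KRT7 and KRT19 had 1380, 929 and 492 FPKM there. JUP had 121 FPKM, KRT18 76.4, KRT14 72.5 and CDH1 49.8. The remaining epithelial markers were lower, with 9.21 FPKM for KRT15, 8.06 for TP63, 7.96 for DSP and 0.540 for EPCAM. Of the genes usual in fibroblasts some were high too. In control VIM had 2464 FPKM, COL1A1 1149, COL1A2 459 and COL3A1 313. THY1 and DCN were at 21.5 and 6.90 FPKM, and LUM, PDGFRA and PDGFRB at 0.149, 0.306 and 0.0203 FPKM. Of the 13 epithelial markers 9 rose and 1 fell with butyrate, and their summed level went from between 7208 and 7527 FPKM to between 10612 and 11049. Of the 9 fibroblast markers 8 could be tested and all 8 rose, and their sum went from between 4356 and 4512 FPKM to between 6374 and 6715. The 7 leukocyte markers summed to between 6.75 and 7.89 FPKM in control and between 12.2 and 14.2 FPKM with butyrate, and 2 of the 3 tested rose. The 5 endothelial markers had sums from 1.97 to 2.16 FPKM in control and from 6.48 to 8.43 FPKM with butyrate, and both tested ones rose. By the same call rule, given below, 32.5% of all genes tested rose and 25.9% fell. PTPRC and CDH5, defining markers of these cell types, were at 0 in all 6 cultures. CD14, CD68 and AIF1 had means of 5.57, 0.595 and 1.07 FPKM in control and 6.80, 1.21 and 5.01 FPKM with butyrate. PECAM1 went from 1.54 to 3.95 FPKM and VWF from 0.456 to 3.31 FPKM. CSF1R, CD3E, CD79A, KDR and TEK were too low to be tested. In cultured cells measured in bulk, fewer cells of a type and less RNA per cell cannot be told apart, and the part of these marker changes in the results below was not tested.

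The calls were mixed within the functional classes. Of the 3 anti-apoptotic members, MCL1 rose, BCL2L1 fell and BCL2 was not called. Among the effectors, BAK1 fell below the level of BID, while BAX was not called. Of the 5 BH3-only genes, BCL2L11 and BMF rose and BID, BBC3 and BIK were not called. A call is a Benjamini-Hochberg adjusted p under 0.05 from limma, fitted to log2(FPKM + 0.1) over the 15813 genes with a mean of at least 0.1 FPKM, a filter that all 10 members passed. By this rule 3 members rose and 2 fell, against 32.5% of all genes tested that rose and 25.9% that fell, so the 5 called members of 10 stand beside a share of 58.4% in the table as a whole. The 2 groups of cultures did not overlap in 5 of the 10 members, against 65% of all genes tested. Treated cultures lay above the controls in 3 of these members and below them in 2, against 36.1% and 28.9% of all genes. The median log2 fold change was -0.65 over the anti-apoptotic members and -0.044 over the pro-apoptotic members, beside 0.10 over all genes tested. The first of these rests on few genes, and it was -0.14 without butyrate replicate 3, the culture with the lowest BCL2.

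**Figure D1:**
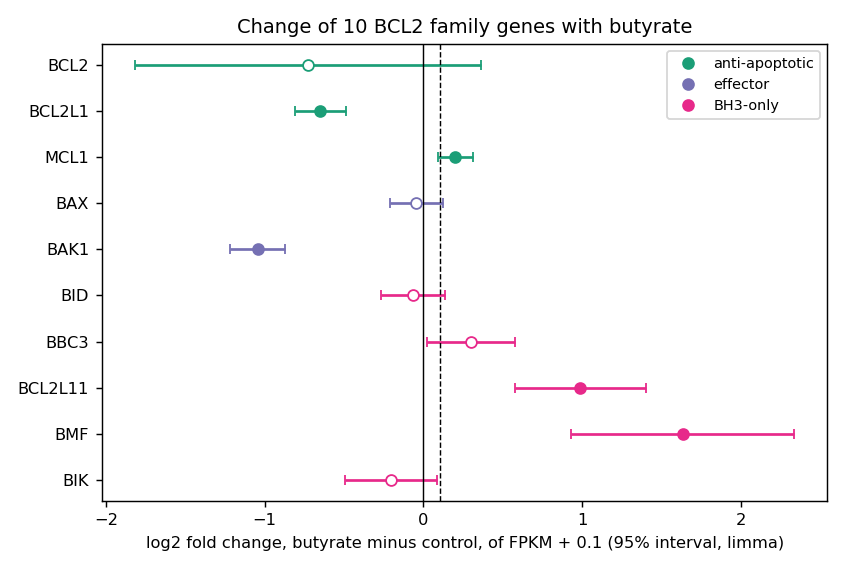
Log2 fold change of FPKM + 0.1, butyrate minus control, on the horizontal axis for the 10 members, with the 95% interval from limma; colors give the role, filled points are called by Benjamini-Hochberg adjusted p, the solid line is 0 and the dashed line is the median of all genes tested, 0.10. BAK1 and BCL2L1 lie to the left of 0, BCL2L11 and BMF to the right, and BCL2 has the widest interval, from -1.82 to 0.36.

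None of the 10 members reached the study's thresholds for a differentially expressed gene, a Bonferroni-corrected p under 0.05 with a log2 fold change beyond 2, which 3.97% of all genes tested passed in limma, 2.46% upward and 1.51% downward. Without adjustment 6 members had a p under 0.05, as did 62.7% of all genes. BAK1 alone passed the Bonferroni correction without the fold limit, as did 12.8% of all genes, 5.79% upward and 6.97% downward. With Benjamini-Hochberg adjustment and a log2 fold change beyond 1, BMF rose and BAK1 fell, beside 25.2% of all genes, 17.2% upward and 8.04% downward. The greatest log2 fold change among the 10 was 1.63, for BMF, so the fold limit by itself left out every member. The exact permutation test of each member's FPKM gave p = 0.1 for the 5 called members, two-sided, which is the smallest p that 3 cultures against 3 allow, and between 0.2 and 0.8 for the others.

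MCL1 encodes a short-lived anti-apoptotic protein that binds BAK1 and BCL2L11 strongly, and it lies on chromosome 3 from 20172325 to 20176965 in UMD3.1, the build in the submitters' processing notes. The controls had 54.1, 53.6 and 51.8 FPKM and the treated cultures 60.3, 62.2 and 61.2 FPKM. The groups stood apart by more than their own ranges. The means were 53.2 ± 1.22 (SD, n = 3) in control and 61.2 ± 0.954 (SD, n = 3) with butyrate. This log2 difference of 0.20 (SE 0.049, Benjamini-Hochberg adjusted p = 0.007 in limma) is a 1.15-fold rise, small but precisely measured. Its 95% interval, from 0.090 to 0.31, includes the median of all genes tested, 0.10. It does not include 0.0021, the median over genes with a mean of at least 1 FPKM. Whether MCL1 rose more than the typical gene thus depends on the genes it is set beside, and was not tested.

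BCL2L1 encodes BCL-XL, a long-lived anti-apoptotic protein, and spans chromosome 13 from 61766800 to 61817394. Untreated cells had 33.9, 34.99 and 31.4 FPKM, and treated cells 22.2, 20.3 and 21.4 FPKM. All 3 butyrate values lay below every control value, with a gap wider than either group's range. The mean went from 33.4 ± 1.87 (SD, n = 3) to 21.3 ± 0.964 (SD, n = 3). On the log2 scale the change was -0.65 (SE 0.071, Benjamini-Hochberg adjusted p = 7.16e-05 in limma), a 1.57-fold lower level. The 2 abundant anti-apoptotic genes thus moved in opposite directions.

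BCL2, the founding member of the family, lies on chromosome 24 from 61914152 to 62106692 and was barely expressed. FPKM in the controls was 0.839, 0.989 and 0.845, against 0.719, 0.881 and 0.165 with butyrate. The lower confidence bound was 0 in all 6 cultures, and the groups overlapped. Its log2 fold change of -0.73 had a 95% interval from -1.82 to 0.36 (Benjamini-Hochberg adjusted p = 0.221 in limma), so neither a large fall nor a modest rise could be told from no change. Without butyrate replicate 3 the log2 fold change was -0.14.

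**Figure D2:**
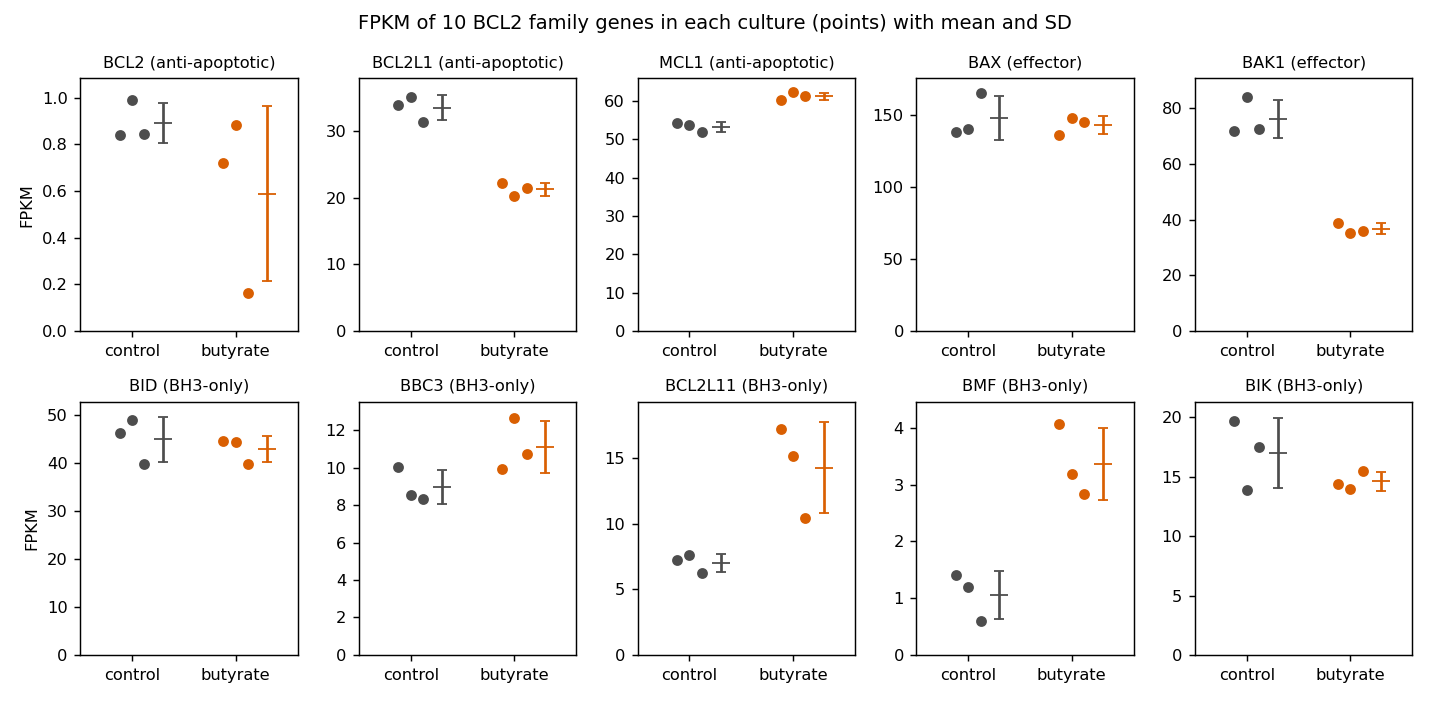
FPKM (vertical axes, each starting at 0) of the 10 members in the 3 control (gray) and 3 butyrate (orange) cultures, in replicate order from left to right, with the mean and SD beside the points. The groups are separate for BCL2L1, MCL1, BAK1, BCL2L11 and BMF and overlap for BCL2, BAX, BID, BBC3 and BIK.

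The effectors behaved unlike each other. BAX, a mostly cytosolic effector that moves to mitochondria when activated, lies on chromosome 18 from 55985141 to 55989379 and was the most abundant member in every culture. Control cultures held 138, 140 and 165 FPKM of it and treated cultures 136, 148 and 145 FPKM. Control replicate 3 was the highest of the 6, and the other control values lay within the butyrate range. Mean BAX was 147.8 ± 15.3 FPKM (SD, n = 3) in control and 143.0 ± 6.08 FPKM (SD, n = 3) with butyrate. On the log2 scale BAX differed by -0.044, with a 95% interval from -0.21 to 0.12 (Benjamini-Hochberg adjusted p = 0.631 in limma). The sign of this small value was positive after rescaling to TPM, after quantile normalization and without control replicate 3.

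BAK1 encodes the effector that resides in the outer mitochondrial membrane, and it lies on chromosome 23 from 7654652 to 7661037. Untreated cultures had 71.6, 83.8 and 72.3 FPKM, and cultures with butyrate 38.9, 35.3 and 35.9 FPKM. Each butyrate value was far below the lowest control value. The mean fell from 75.9 ± 6.83 (SD, n = 3) to 36.7 ± 1.89 (SD, n = 3), a difference of -39.2 FPKM that was the largest among the 10 members. In log2 units BAK1 changed by -1.04 (SE 0.075, Benjamini-Hochberg adjusted p = 5.70e-06 in limma), a 2.06-fold lower level. In control the level of BAX was 1.96 ± 0.309 (SD, n = 3) times that of BAK1 within a culture, and with butyrate it was 3.91 ± 0.358 (SD, n = 3) times. The share of BAK1 in the summed FPKM of both effectors went from 34.0% ± 3.51 (SD, n = 3) to 20.5% ± 1.55 (SD, n = 3).

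Among the BH3-only genes, the rises were seen in BCL2L11 and BMF. BCL2L11 encodes BIM, a BH3-only protein that binds all the anti-apoptotic members and can activate the effectors, and lies on chromosome 11 from 1152979 to 1203914. The level was 7.19, 7.61 and 6.24 FPKM in controls against 17.2, 15.1 and 10.4 FPKM after treatment. The butyrate cultures were all above the controls but spread widely, replicate 3 being the lowest. The mean went from 7.01 ± 0.704 (SD, n = 3) to 14.3 ± 3.49 (SD, n = 3). BCL2L11 thus rose 1.98-fold, by 0.99 on the log2 scale (SE 0.18, Benjamini-Hochberg adjusted p = 0.00149 in limma).

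BMF encodes a BH3-only protein that is held at the cytoskeleton through a dynein light chain, and lies on chromosome 10 from 35852897 to 35874044. Controls had 1.40, 1.20 and 0.590 FPKM, and the treated cultures had 4.07, 3.19 and 2.83 FPKM. Every butyrate value lay above every control value, but the confidence bounds of some cultures overlapped. The upper bound was 2.56 FPKM in control replicate 1, and the lower bound was 1.90 FPKM in butyrate replicate 3. The mean went from 1.06 ± 0.422 (SD, n = 3) to 3.36 ± 0.637 (SD, n = 3), which is 2.30 FPKM in absolute terms. A log2 fold change of 1.63 (SE 0.31, Benjamini-Hochberg adjusted p = 0.00179 in limma) was the largest of the 10 members. With a pseudocount of 1 in place of 0.1 it was 1.09, since the scale understates the change of low genes.

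The 3 BH3-only genes that were not called include the most abundant of the class. BID, which caspase-8 cleaves to link death receptors with mitochondria, lies on chromosome 5 from 109639245 to 109656850. Its levels were 46.2, 48.9 and 39.8 FPKM untreated and 44.5, 44.5 and 39.8 FPKM treated. All 3 treated values lay inside the control range, and 2 of the controls were above every treated culture. The log2 difference of -0.064 had a 95% interval from -0.26 to 0.14 (Benjamini-Hochberg adjusted p = 0.555 in limma), and it was positive after rescaling to TPM and after quantile normalization.

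BBC3 encodes PUMA, a BH3-only protein that binds all anti-apoptotic members, and it lies on chromosome 18 from 54675515 to 54678676, on the same chromosome as BAX. FPKM was 10.02, 8.57 and 8.34 in the controls and 9.95, 12.6 and 10.7 in the treated cultures. Only control replicate 1 reached into the butyrate range. The log2 fold change of 0.30, with a 95% interval from 0.025 to 0.58, missed the threshold (limma, Benjamini-Hochberg adjusted p = 0.0604). It passed after rescaling to TPM, at 0.43, over genes with a mean of at least 1 FPKM, and without control replicate 1 or butyrate replicate 1, at 0.38 in both, so the call of BBC3 depends on the setting.

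BIK, a BH3-only gene whose protein sits mainly at the endoplasmic reticulum, lies on chromosome 5 from 114545871 to 114571825. The controls held 19.7, 13.9 and 17.5 FPKM of its RNA, the treated cultures 14.4, 14.0 and 15.5 FPKM. Control replicate 2 was the lowest of all 6 cultures, and the other control cultures lay above all butyrate cultures. BIK differed by -0.21 on the log2 scale, with a 95% interval from -0.50 to 0.084 (Benjamini-Hochberg adjusted p = 0.195 in limma). Without control replicate 2 it was -0.35 and passed the threshold (adjusted p = 0.0213).

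The order of the levels changed in places. In control, BAX was followed by BAK1, MCL1, BID, BCL2L1, BIK, BBC3, BCL2L11, BMF and BCL2, and the ranges of neighbors overlapped only for BMF and BCL2. With butyrate the order was BAX, MCL1, BID, BAK1, BCL2L1, BIK, BCL2L11, BBC3, BMF and BCL2. BAK1 dropped from the second to the fourth place and BCL2L11 passed BBC3. The ranges of BIK and BCL2L11 and those of BCL2L11 and BBC3 overlapped with butyrate, so the order of these 3 is not settled. Among all genes tested, BAX stood at percentile 94.5 of control levels and at percentile 94.9 with butyrate. BAK1 went from percentile 90.1 to 82.6 and BCL2L1 from percentile 80.7 to 74.0. BCL2L11 went from percentile 54.0 to 66.7 and BMF from percentile 28.1 to 40.1.

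Added over genes, the anti-apoptotic side shifted in makeup, while the direction of its total depended on the scaling. The sum came to 88.9, 89.6 and 84.0 FPKM in controls and to 83.2, 83.3 and 82.7 FPKM with butyrate. The butyrate sums lay just below the lowest control sum, since a loss of 12.1 FPKM in BCL2L1 stood beside a gain of 8.02 FPKM in MCL1. Rescaled to TPM, so that every culture has the same total, the sum was 131.1, 131.4 and 123.6 in controls and 134.3, 133.5 and 131.5 with butyrate. On that scale the treated cultures lay just above the controls. The share of MCL1 in this sum went from 60.8% ± 0.920 (SD, n = 3) to 73.7% ± 1.10 (SD, n = 3), and that of BCL2L1 from 38.2% ± 0.867 (SD, n = 3) to 25.6% ± 1.19 (SD, n = 3). BCL2 made up 1.10% or less of the sum in every culture.

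On the pro-apoptotic side the effector sum was lower after butyrate. Both effectors together had 210, 224 and 238 FPKM in controls and 175, 183 and 181 FPKM in treated cultures, with no overlap. The 5 BH3-only genes summed to 84.5, 80.2 and 72.5 FPKM in control and to 90.1, 89.4 and 79.3 FPKM with butyrate, where 1 treated culture lay within the control range. In TPM the BH3-only sums were 124.7, 117.6 and 106.6 against 145.5, 143.2 and 126.1, without overlap. The effector sums stayed lower in TPM, at 329 ± 20.4 (SD, n = 3) against 288 ± 5.37 (SD, n = 3), again without overlap, while the sums of all 7 pro-apoptotic genes overlapped. Within the BH3-only sum, the share of BCL2L11 went from 8.87% ± 0.541 (SD, n = 3) to 16.4% ± 3.03 (SD, n = 3) and that of BMF from 1.32% ± 0.447 (SD, n = 3) to 3.88% ± 0.546 (SD, n = 3). BID remained the largest part, at 56.9% ± 3.61 (SD, n = 3) in control and 49.8% ± 0.404 (SD, n = 3) with butyrate.

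**Figure D3:**
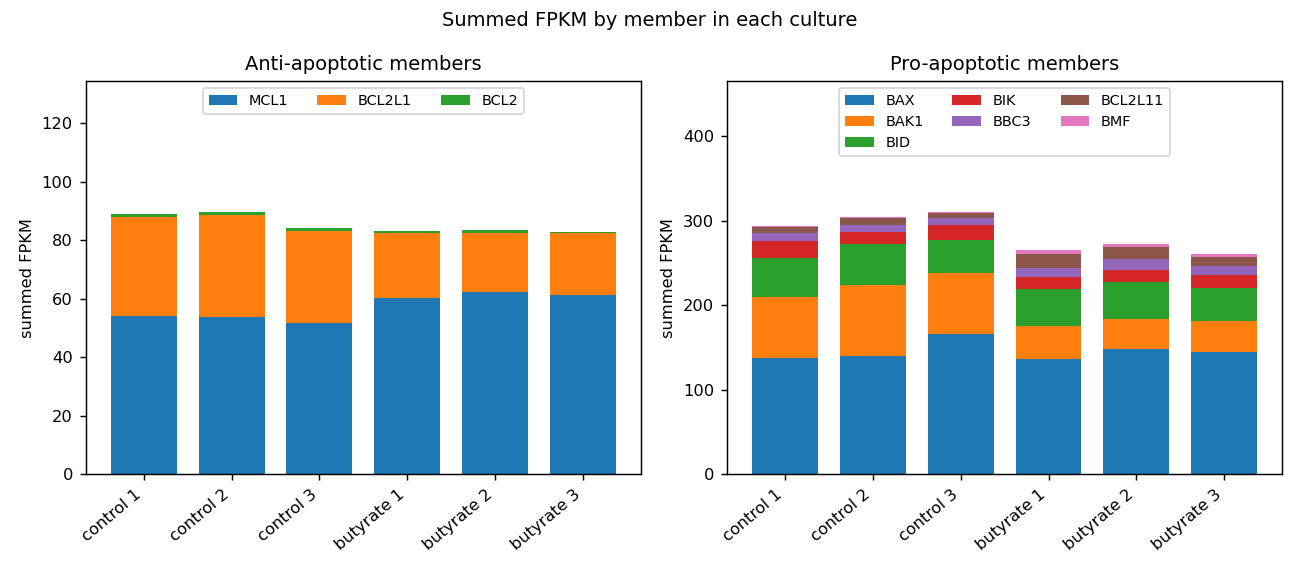
Summed FPKM (vertical axes, starting at 0 and differing between panels) of the 3 anti-apoptotic members on the left and the 7 pro-apoptotic members on the right in each culture, with colors for the genes. In these FPKM units the left bars keep nearly the same height while MCL1 takes a larger part after butyrate, and the right bars are lower after butyrate, mainly in BAK1.

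The balance of the sides therefore depended on the genes counted. The ratio of pro-apoptotic to anti-apoptotic FPKM was 3.31, 3.39 and 3.69 in controls and 3.19, 3.27 and 3.15 in treated cultures. The butyrate ratios were slightly lower, without overlap. Leaving out BAX and MCL1, the most abundant member of each side, turned the direction, and the ratio went from 4.50, 4.56 and 4.50 in control to 5.63, 5.90 and 5.35 with butyrate. BH3-only FPKM over anti-apoptotic FPKM went from 0.903 ± 0.0449 (SD, n = 3) to 1.04 ± 0.0692 (SD, n = 3). These ratios summarize genes chosen with earlier results known and were not tested.

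Ratios of single pairs, each taken within a culture, moved further. BCL2L11 over BCL2L1 went from 0.210 ± 0.00957 (SD, n = 3) to 0.671 ± 0.159 (SD, n = 3), with butyrate replicate 3 the lowest of its group at 0.488. BAX over BCL2L1 went from 4.45 ± 0.716 (SD, n = 3) to 6.74 ± 0.580 (SD, n = 3), of which only BCL2L1 was called by itself. BAK1 over MCL1 went from 1.43 ± 0.123 (SD, n = 3) to 0.600 ± 0.0399 (SD, n = 3), so that MCL1 was the less abundant of this pair in each control culture and the more abundant in each butyrate culture. For BAX over BCL2, a ratio often quoted for apoptosis, the values ran from 142 to 196 in control and from 168 to 878 with butyrate, and with BCL2 so low they cannot be read as a difference.

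**Figure D4:**
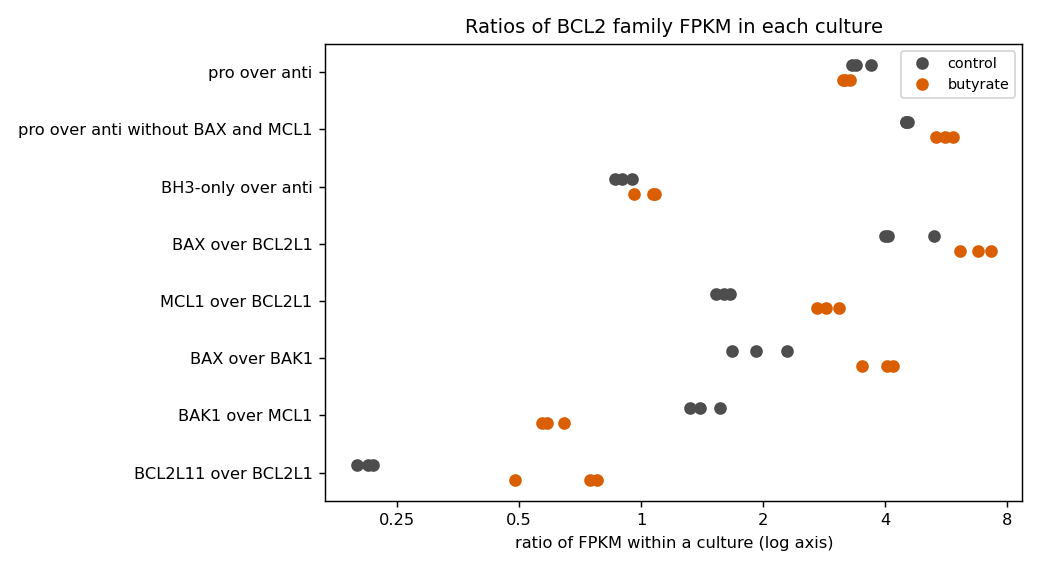
Ratios of FPKM within a culture (log axis) for sums of members and for pairs of members, with 1 point per control (gray) or butyrate (orange) culture. The groups are separate in each ratio shown, and the ratio of pro to anti sums changes direction when BAX and MCL1 are left out.

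The precision of these values differed widely between members. The upper confidence bound exceeded the FPKM by 4.09% to 4.21% for MCL1, by 8.02% to 9.84% for BCL2L1 and by 8.84% to 10.2% for BAX. For BAK1 it did so by 10.3% to 14.6%. For BCL2L11 the excess was 19.2% to 41.4%, and for BMF 27.5% to 104%, with a lower bound of 0 in control replicate 2. For BCL2 the bound exceeded it by 123% to 208%. The falls of BAK1 and BCL2L1 and the rise of MCL1 thus rest on well-measured values, whereas BMF is called from a low level. Rows of other genes overlapped 4 members. ACOXL overlaps the end of BCL2L11, from 1203837, and had at most 0.749 FPKM in any culture. It was higher after butyrate, with a log2 fold change of 1.11 (limma, Benjamini-Hochberg adjusted p = 0.031). The uncharacterized loci overlapping BCL2, BCL2L1 and BID had at most 1.87 FPKM. The library kit is not stated to keep strand, so reads in the overlaps cannot be told apart.

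Other members of the family shared the mixed pattern. Of 13 with a row, 8 were tested, 2 rose and 4 fell, with a median log2 fold change of -0.12. Over all genes tested 32.5% rose and 25.9% fell, shares that stand beside the counts of the following lists as well. BNIP3L (NIX), a mitophagy receptor, rose with a log2 fold change of 1.20, and BCL2L2 (BCL-W), an anti-apoptotic member, with 0.60. BNIP3, a relative of BNIP3L and a hypoxia target, fell with -0.77, so the pair moved in opposite directions. BAD, a BH3-only gene, and BOK, an effector-like gene, had -0.41 and -0.36, calls kept in 9 and 12 of 15 alternatives. After rescaling to TPM 4 rose and 1 fell, with a median of 0.0029. Only 2 fell without control replicate 1, without any 1 of the butyrate cultures and without the variance trend. BCL2A1, BCL2L10, HRK, BCL2L14 and BCL2L15 were below the filter. MOAP1 was not analysed here.

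Downstream of the mitochondrion, 2 of 14 tested apoptosome and caspase genes rose and 4 fell, with a median log2 fold change of -0.21. CASP9, the initiator caspase of the apoptosome, rose with 0.91. CYCS, which encodes cytochrome c, fell with -0.98, and PARP1, a caspase substrate, with -0.59. After rescaling to TPM, 2 genes of the list rose and 2 fell. APAF1, the scaffold of the apoptosome, was low, with 0.619 FPKM in control and 0.754 FPKM with butyrate, and was not called.

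Of 8 tested inhibitors of apoptosis and their antagonists, 2 fell and 0 rose, with a median of 0.080 (limma, 0 also at an unadjusted p under 0.05). BIRC5 (survivin), which also works in mitosis, fell from 73.5 ± 0.544 (SD, n = 3) to 3.21 ± 0.280 FPKM (SD, n = 3), a log2 fold change of -4.48 and the only gene of these lists past the study's thresholds. DIABLO (SMAC), which neutralizes XIAP, had -0.27, a call lost under most alternatives. XIAP itself, at 1.37 FPKM in control, was not called.

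Among 9 genes of the outer mitochondrial membrane and of fission and fusion, 6 fell and 0 rose, with a median of -0.25 (limma, 0 also at an unadjusted p under 0.05). DNM1L (DRP1), the fission GTPase, and VDAC2, the porin that holds BAK1 at mitochondria, fell with -0.59 and -0.58, and MFN2, a fusion GTPase, had -0.49, a call kept in 10 of 15 alternatives. VDAC1 and VDAC3 had -0.0011 and 0.018. The counts depended on the scaling, since after rescaling to TPM 2 rose and 3 fell, and after quantile normalization 2 rose and 5 fell, with a negative median in both. With a culture left out 3 to 5 fell, the 3 being without butyrate replicate 1 or without control replicate 2.

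Of 12 genes for proteins that hold or turn over family members, 4 rose and 4 fell, with a median of -0.013. FBXO7, an F-box protein, and USP9X, which removes ubiquitin from MCL1, rose with 1.17 and 0.48, the call of USP9X being lost after quantile normalization, without butyrate replicate 1 and without control replicate 3. RNF183, a ubiquitin ligase, rose with 3.41, being listed at 0 in 2 of the 3 controls and at 0.128 FPKM in the other, and its size ranged from 1.16 to 5.77 with the pseudocount. YWHAZ, which belongs to the 14-3-3 proteins that bind phosphorylated BAD, had -0.37. MARCH5, a mitochondrial ubiquitin ligase, and YWHAE, another 14-3-3 protein, had -0.29 each. The call of MARCH5 was kept in only 7 of 15 alternatives, those of YWHAZ and YWHAE in 14 each. A further 14-3-3 gene of the list, YWHAQ, rose with 0.33. None of the 3 falls was called after quantile normalization, where 3 rose and 0 fell.

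Of 13 tested transcription factors known to bind genes of the family, 7 rose and 4 fell, with a median of 0.31. With median scaling and without the variance trend 5 rose, and with a culture left out 5 to 7 rose, while 4 fell in each case. DDIT3 (CHOP), STAT3 and FOXO1 rose with 1.18, 0.83 and 0.68. E2F1 and TFAP4 fell with -3.16 and -1.70. Over the 64 tested genes of these 6 lists together, 15 rose and 24 fell, beside 32.5% and 25.9% of all genes tested. After rescaling to TPM 20 of them rose and 13 fell, beside 5924 and 3387 of all 15813 genes tested. The lists were written by hand with earlier results of these data known, so their counts are descriptions.

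**Figure D5:**
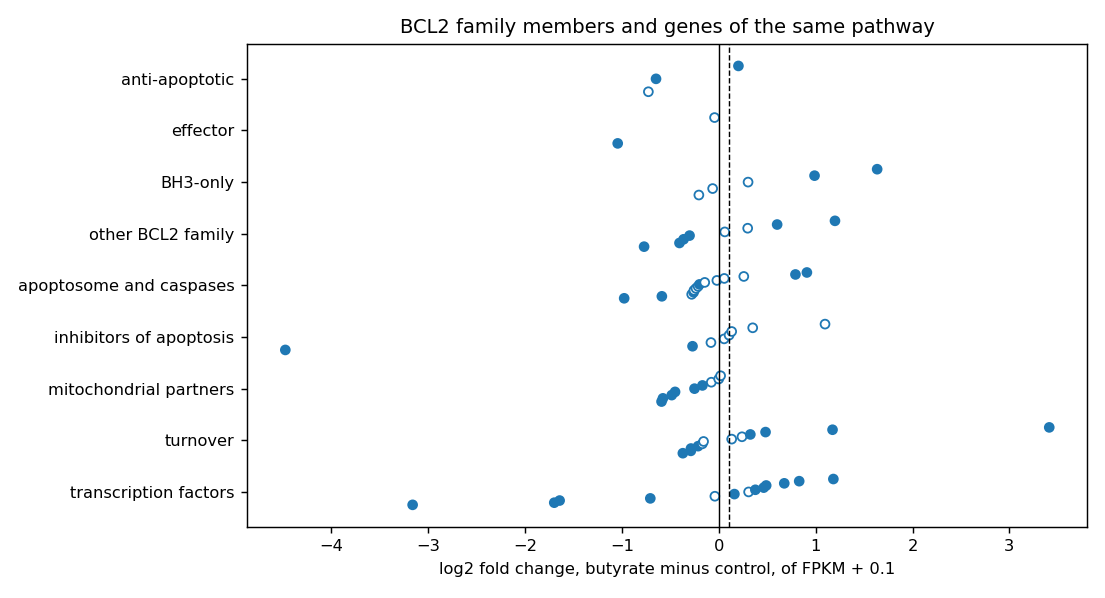
Log2 fold change of FPKM + 0.1, butyrate minus control (horizontal axis), of each tested member and each tested gene of the 6 pathway lists; filled points are called by Benjamini-Hochberg adjusted p, open points are not, the solid line is 0 and the dashed line the median of all genes tested, 0.10. BIRC5 at -4.48 and RNF183 at 3.41 lie farthest out, and the members lie between -1.04 and 1.63.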

How the data were processed

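RNA was measured in 6 REPC cultures, 3 per group. Per the labels and the methods, the authors trimmed reads with Trim Galore 0.4.1, aligned them with STAR to UMD3.1, kept reads that mapped to 1 place and deposited Cufflinks FPKM per gene, with lower and upper confidence bounds, whose level is not given in the sources used here. Rows were joined by name and position, and start positions were made 1-based. Chromosome numbers came from the majority of gene names in the RefSeq table of ARS-UCD2.0. Rows with a failed estimate in any culture were left out.

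FPKM is no count, so limma 3.58.1 (R 4.3.3) was run with a trend in the variance on log2(FPKM + 0.1) and checked on simulated data. Exact permutation tests used scipy 1.17.1. The members and gene lists were chosen with earlier results of these data known. From each list, up to 3 called rises and 3 called falls with the largest change were named, except for some that are not reported here, and genes added to these (APAF1, XIAP, VDAC1, VDAC3, YWHAQ, ACOXL and the genes below the filter) were chosen after their values were seen. CASP13 shares the row of CASP4, and CASP10 was not analysed here. Sequences of the members were not analysed here. Alternatives were other pseudocounts, filters, scalings and call rules, no trend, the replicate block and each culture left out. Replicate numbers come from the labels.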

Additional observations from a re-analysis of the deposited data

How the results depend on the processing

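The calls of MCL1, BCL2L1, BAK1, BCL2L11 and BMF kept their direction and their side of the threshold in all 15 alternative fits, with log2 fold changes from 0.13 to 0.33, -0.72 to -0.53, -1.12 to -0.92, 0.84 to 1.20 and 1.09 to 1.86. BAX, not called in any fit, was 0.085 after quantile normalization, 0.080 after rescaling to TPM and 0.040 without control replicate 3, and ran from -0.091 to 0.040 over the fits that left out a culture. BID was 0.0076 and 0.060 after quantile normalization and rescaling to TPM. Rescaling moved the median of all genes from 0.10 to 0.23, and quantile normalization to -0.045. Members called higher went from 3 to 0 with the study's thresholds, 1 with a log2 fold change beyond 1 and 0 with Bonferroni correction alone, and those called lower from 2 to 0, 1 and 1. Genes of the other lists went in the same order from 15 to 0, 4 and 3 for rises and from 24 to 1, 4 and 3 for falls, and to 13 falls after rescaling to TPM. Over the whole table, 5144 rises became 389, 2718 and 916, and 4091 falls became 238, 1271 and 1102. With a culture left out, 3 to 4 members rose and 2 to 3 fell.

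The median of the anti-apoptotic members was -0.22 over genes with a mean of at least 1 FPKM, where BCL2 has no value, -0.28 with a pseudocount of 1, and -0.69 to -0.14 with a replicate left out. That of the pro-apoptotic members was 0.085 after quantile normalization, 0.080 after rescaling to TPM and -0.068 to 0.040 with a replicate left out. The log2 difference of the ratio of pro- to anti-apoptotic FPKM went from -0.11 to 0.32 without BAX and MCL1 and lay between -0.15 and -0.066 when a replicate was left out. Rescaling the sums to TPM, chosen after seeing the data, turned the log2 difference of the anti-apoptotic sum from -0.074 to 0.049. The cause was not tested. Same-numbered cultures had correlations of their deviations of 0.0228, -0.0043 and 0.0018, and pairs with different numbers had -0.0181 to 0.0163. These values do not show a pairing, but they cannot tell whether same-numbered cultures were handled together. With the replicate block, 3 members rose and 2 fell, and 4956 genes rose and 4015 fell. Among named genes it took away only the call of DIABLO. Low FPKM limits BCL2 and BMF. No name of the members or of the gene lists occurred on several rows, so an alternative that summed such rows gave no value.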
